A study of Mus musculus with 20 samples.

Results

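The 10 heat shock chaperone genes described here are the stress-inducible HSP70 gene Hspa1a, the constitutive HSP70 gene Hspa8, the HSP110 gene Hsph1, the J-protein genes Dnaja1 and Dnajb1, the HSP90 genes Hsp90aa1 and Hsp90ab1, the mitochondrial chaperonin genes Hspd1 and Hspe1, and Hsf1, which encodes the transcription factor that drives the heat shock response. They were chosen by name, with earlier results of these data known. Each was read from its brightest probe, and they are 10 of the 20886 genes that the arrays' probes named. HSP70 binds unfolded stretches of a protein and uses ATP to release them, J-proteins deliver clients to it and start its ATP use, and HSP110 proteins exchange its nucleotide. HSP90 takes partly folded clients such as kinases and receptors from HSP70, and the HSP60 and HSP10 rings fold proteins inside mitochondria. Under stress HSF1 is freed from chaperones, binds repeats of GAANNTTC in promoters and raises transcription of these genes, and T cells also raise several of them on activation.

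The arrays measured RNA of grafted CD8+ effector T cells recovered from 3 organs (liver, lung and small intestine) and from peripheral blood of mice in which the graft caused lethal acute graft-versus-host disease, 5 arrays a site and 20 in all. Recipients were female C57Bl/6 m-act OVA mice aged 8 to 16 weeks, whose CAG-driven transgene makes ovalbumin, and they received 11 Gy of total body irradiation. The graft was bone marrow and splenocytes of OT-I donors, whose transgenic receptor recognises an ovalbumin peptide, and the CD8+ OT-I cells carried CD45.1 whereas other graft cells and the recipients carried CD45.2. All 4 groups shared this treatment, and cells were taken on day 4 by magnetic selection for CD45.1, so no group held cells of untreated or ungrafted mice. No label says which animal an array came from, so the p-values rest on the spread among arrays, part of which may be technical, and precision is limited by there being 5 a site.

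The 4 arrays with the same replicate number, 1 per site, shared a slide. Array brightness at the 75th percentile spanned 823 to 2845 units, and 22.6% to 38.7% of probes were well above background. The 15 CD8 T cell identity genes averaged 3.68, 3.18 and 2.94 on the log2 scale on the arrays labelled small intestine 1, 2 and 4, against 3.80 to 4.64 on the other 17 arrays. The 6 Paneth cell markers with a probe averaged 3.83, 4.80 and 5.64 on those 3 arrays. They averaged 2.70 on the array labelled liver 5 and -2.93 on the array labelled small intestine 5, against values from -2.86 to -1.55 in blood. These 2 arrays go against their labels in this marker list, so the results are also given without them. The 11 alveolar macrophage markers averaged 2.65, 2.23, -2.19, 5.08 and 4.36 on lung 1 to 5, with 11, 9, 0, 11 and 11 of them well above background, against -3.34 to -1.67 in blood, and their part in the lung values below was not tested. The 11 monocyte and macrophage markers with a probe averaged 2.25 and 2.67 on small intestine 1 and 2, with 9 well above background on each. They averaged -2.54 to -0.13 on the other arrays, and their part in the small intestine values below was not tested.

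Levels are log2 processed signal minus the 75th percentile of the array, so 0 is that percentile, and a level is compared between sites only for the same probe. Testing needed a probe well above background on 4 or more of the 5 arrays in 1 site or more. This held for 9 of the 10 genes, Hspa1a being the exception, and for 8057 genes in all. In bulk RNA, fewer cells making a transcript and less transcript per cell cannot be told apart.

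RefSeq promoters of build GRCm38.p6, 250 bases before to 50 after the start, were found for 6 of the 10 genes, and the outermost listed start of each gene was read. They were searched on both strands for the heat shock element, as 3 alternating units (GAANNTTCNNGAA or TTCNNGAANNTTC) and as 2 units (GAANNTTC or TTCNNGAA), the longer form containing the shorter. The 3-unit form was found in 2 of the 6, Hspe1 and Hsph1, and in 146 of the 27025 promoters of all genes (0.54%). The 2-unit form was found in 4 of the 6 and in 15.1% of all promoters. The 4 promoters that hold a match are shown because they carry the letters that HSF1 is known to bind, with every base of a match in capitals. They lie at chr17:34972107-34972406 on the minus strand, chr1:55087898-55088197 on the plus strand, chr5:149636287-149636586 on the minus strand and chr4:40722218-40722517 on the plus strand.
Hspa1a: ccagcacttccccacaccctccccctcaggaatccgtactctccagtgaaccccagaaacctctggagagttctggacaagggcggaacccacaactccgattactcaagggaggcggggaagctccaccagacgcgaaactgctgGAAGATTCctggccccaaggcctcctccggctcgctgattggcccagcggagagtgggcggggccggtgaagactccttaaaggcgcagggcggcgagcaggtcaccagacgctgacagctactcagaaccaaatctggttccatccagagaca
Hspe1: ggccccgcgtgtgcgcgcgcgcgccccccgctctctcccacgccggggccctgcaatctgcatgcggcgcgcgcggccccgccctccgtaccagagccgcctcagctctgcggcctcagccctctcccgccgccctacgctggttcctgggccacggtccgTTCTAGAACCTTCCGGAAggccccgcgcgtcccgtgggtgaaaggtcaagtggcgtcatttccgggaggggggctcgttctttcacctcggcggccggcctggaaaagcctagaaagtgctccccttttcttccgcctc
Hsph1: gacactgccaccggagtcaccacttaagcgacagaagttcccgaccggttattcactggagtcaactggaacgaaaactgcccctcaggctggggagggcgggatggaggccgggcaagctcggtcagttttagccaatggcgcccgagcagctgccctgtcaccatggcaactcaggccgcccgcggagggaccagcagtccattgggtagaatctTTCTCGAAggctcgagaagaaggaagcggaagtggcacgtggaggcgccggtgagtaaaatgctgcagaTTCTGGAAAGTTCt
Dnaja1: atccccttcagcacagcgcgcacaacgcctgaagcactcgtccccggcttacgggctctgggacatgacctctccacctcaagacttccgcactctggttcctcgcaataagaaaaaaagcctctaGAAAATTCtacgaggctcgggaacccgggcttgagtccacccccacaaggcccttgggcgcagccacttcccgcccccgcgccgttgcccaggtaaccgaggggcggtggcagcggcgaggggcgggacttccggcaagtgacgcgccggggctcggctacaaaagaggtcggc
The middle of the Hspa1a match lies 100 bases before the start and that of Dnaja1 120 before it. Hspe1 holds 2 overlapping 3-unit matches, with middles 83 and 78 bases before its start, and Hsph1 has a 3-unit match 42 bases after its start and a 2-unit match 29 before it. Hspd1, which lies head to head with Hspe1, has no match at its outermost start and holds the same 2 matches at its other listed start. The promoter of Dnajb1 holds neither form. A match is a run of letters and was not tested as a binding site.

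None of the 9 tested genes passed the threshold of an adjusted p of 0.05 in any of the 6 comparisons between sites, by limma's moderated test with Benjamini-Hochberg adjustment over all 8057 genes. With blood as the comparator, 0% of all genes passed for liver, 0.819% for lung cells and 10.8% for small intestine cells. Among organs the shares were 0.285% (lung minus liver), 0% (small intestine minus liver) and 0.149% (small intestine minus lung). With an unadjusted limma p under 0.05, the counts were 1 of 9 (liver), 4 (lung cells) and 2 (small intestine cells) against blood, and 0 between organs. Over all genes the shares were 2.79%, 33.8% and 32.8% against blood, and 14.8%, 22% and 8.24% between organs, in the order above. The F-test over the 4 sites called 0 of the 9 and 0.757% of all genes, and the lowest adjusted F-test p among the 9 was 0.235, for Hsf1. In no comparison did any of the 10 genes have values that did not overlap between the sites compared. Of all tested genes, 1.03% (liver), 6.93% (lung) and 8.3% (small intestine) did not overlap with blood, and 4.65%, 1.27% and 1.08% did not in the comparisons between organs, in the order above, and 0 of 10 is close to these shares.

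The highest site mean was that of blood for 5 of the 10 genes (Hsf1, Hsph1, Dnajb1, Hsp90aa1 and Hspd1), of liver for 4 (Hspa8, Dnaja1, Hsp90ab1 and Hspe1) and of small intestine for Hspa1a. The lowest was that of lung for 5 genes, of blood for 3 and of small intestine for 2. These orders rest on differences that did not pass the test. Against blood the median log2 difference of the 9 tested genes was -0.05 (liver), -0.38 (lung) and -0.39 (small intestine), and that of all tested genes was 0.05, -0.30 and -0.36. In the same order 5, 7 and 7 of the 9 differences were negative, against 44.4%, 65.0% and 64.7% of all genes. Between organs the medians of the 9 were -0.33 for lung minus liver, -0.29 for small intestine minus liver and 0.04 for small intestine minus lung, and those of all genes -0.25, -0.34 and -0.15. Taking the percentile over 6836 probes that every array detected moved the all-gene median to -0.13, -0.48 and -0.32 against blood, so directions of small differences depend on the scaling. With the slide as a block, 0 of the 9 passed in every comparison, beside 14.4% of all genes for small intestine against blood, and the lowest adjusted p was 0.0613, for Hsph1 in small intestine against blood.

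**Figure D1:**
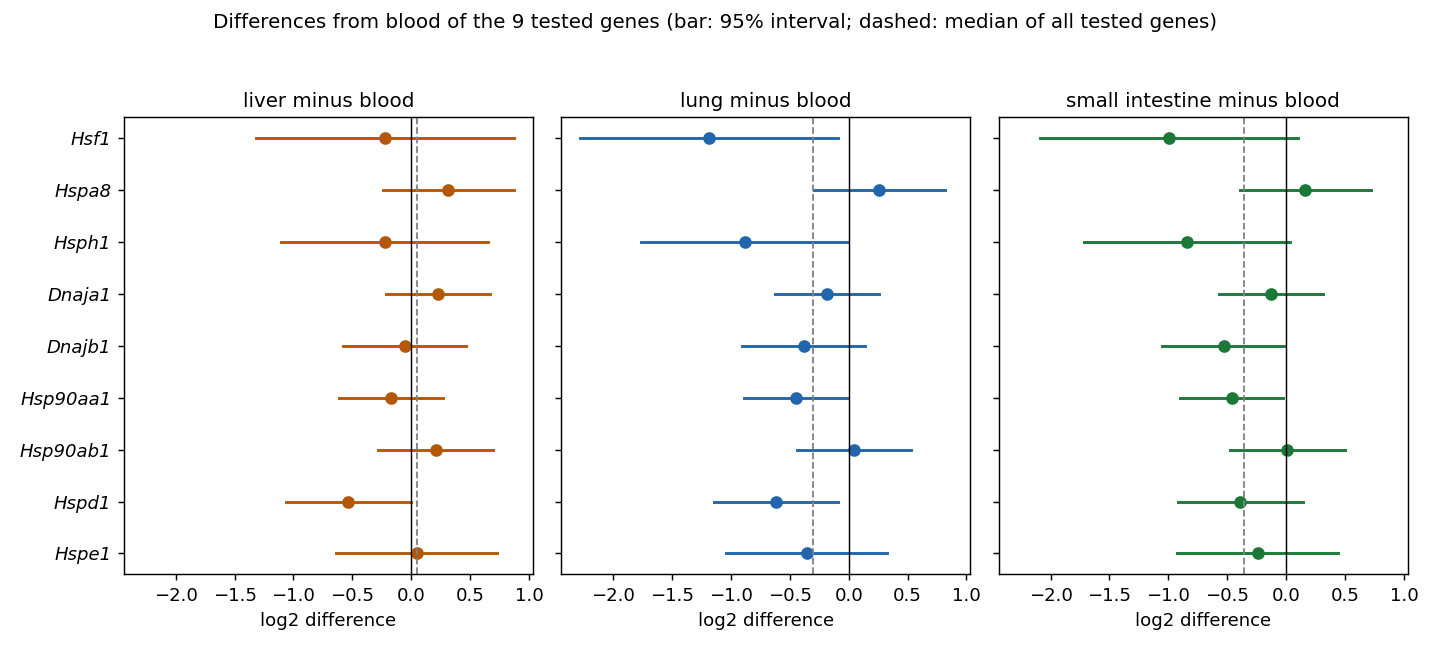
Log2 difference from blood for the 9 tested genes in liver, lung and small intestine, with the unadjusted 95% interval of the limma fit (20 arrays) as a bar, 0 as a solid line and the median of all 8057 tested genes as a dashed line. Most intervals include the all-gene median, and Hsf1 and Hsph1 have the widest.

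Hsf1, the regulator of the group, had lower means in lung and small intestine than in liver and blood, and the widest spread within sites of the 9 tested genes, with an SD within sites of 0.89 against a median of 0.56 over all tested genes. Its levels were 1.66, 1.73, 0.55, -1.26 and -0.01 in lung and 1.41, 0.72, 1.40, -1.28 and 1.38 in small intestine. They were 1.76, 2.00, 1.30, 1.00 and 1.43 in liver and 1.79, 2.32, 1.65, 1.32 and 1.51 in blood. The lung and small intestine arrays of slide 4 were the only ones at which the probe was not well above background, and all 3 organs overlapped with blood. Hsf1 averaged 0.53 ± 1.25 in lung and 1.72 ± 0.38 in blood (SD, n = 5 each), a log2 difference of -1.18 ± 0.53 (SE, limma adjusted p = 0.135), and it was lower in lung on 5 of 5 slides. The difference was -0.99 ± 0.53 for small intestine against blood (limma adjusted p = 0.188), again lower on 5 of 5 slides, and -0.22 ± 0.53 for liver (limma adjusted p = 0.997). The order of the site means was blood, liver, small intestine, lung, and no neighbours in it differed beyond their spread. Single arrays moved these values, to -0.74 for lung without lung 4 and to -0.49 for small intestine without small intestine 4. Lung 4 and 5, with the lowest Hsf1 of lung, had the highest alveolar macrophage markers. Lung 3, with the lowest of these markers in lung, had Hsf1 at 0.55, below lung 1 and 2. The part of those cells was not tested.

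Hspa1a, whose transcription HSF1 strongly induces, was the 1 gene whose probe lay well above background on few arrays, 5 of 20. Its levels were -0.69, 0.28, -2.00, 1.11 and -1.37 in small intestine and -0.31, -0.16, -2.72, -3.24 and -2.88 in liver. In lung they were -2.28, -1.62, -2.11, -2.05 and -2.68, and in blood -1.95, -2.71, -3.62, -3.66 and -3.08. The 5 arrays well above background were liver 1 and 2 and those labelled small intestine 2, 4 and 5, and none of the lung or blood arrays was among them. Within liver the values fell into a pair near the 75th percentile and 3 arrays more than 2 log2 units below it. Small intestine and blood values overlapped only between small intestine 3 and blood 1.

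The mean of Hspa1a was -0.53 ± 1.25 in small intestine and -3.01 ± 0.71 in blood (SD, n = 5 each), and in blood the probe was not well above background. Set against the dimmest signal that counted as well above background on each blood array, the small intestine mean was 1.43-fold higher. This ratio is no strict lower bound, because small intestine 1 and 3 were not well above background and entered at their measured values. On small intestine 1 the probe lay at -0.69, above that array's dimmest such signal of -0.83, yet did not count as well above background. The ratio ranged from 1.07-fold without the array labelled small intestine 4 to 1.84-fold without small intestine 3. Against lung, where the mean was -2.15 ± 0.38, it was 1.03-fold, and no fold can be given without small intestine 2 or without small intestine 4. When every named gene was tested without the filter on dim probes, 254 of 20886 (1.22%) passed for small intestine against blood. Hspa1a was among them (limma adjusted p = 0.0433), and because all 5 blood arrays left it near background, the size is given only as the ratio above. Its adjusted p lay under 0.05 with 7 of the 20 arrays left out in turn, ran from 0.0137 without small intestine 5 to 0.143 without small intestine 2, and was 0.143 with the scaling on detected probes. With liver 5 and small intestine 5 left out, the limma adjusted p was 0.0104, in a fit that called 8.99% of the 20886 genes. Small intestine minus liver, where the probe was well above background on 2 of 5 arrays, gave 1.33 ± 0.59 (limma adjusted p = 0.418). For liver and for lung against blood no fold can be given.

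Over the small intestine arrays the level of Hspa1a moved in part with markers of gut epithelium. The 14 intestinal epithelium markers averaged -0.93, 1.23, -1.54, 2.38 and -3.11 on small intestine 1 to 5, with 6, 9, 4, 11 and 4 of them well above background, and blood arrays ran from -3.02 to -1.59 with 0 to 2 of them well above background. Small intestine 4 and 2, the arrays with the highest Hspa1a, were also the highest in these markers and the lowest in CD8 T cell identity genes. Small intestine 5 had Hspa1a above every blood array, with the mean of these markers below every blood array and CD8 T cell identity genes at 4.38. Yet more of these markers were well above background on it than on any blood array. Its dimmest signal that counted as well above background lay at -2.01, lower than on any other array. The part of the scaling in its low marker mean was not tested. Liver 1 and 2 had Hspa1a at -0.31 and -0.16, with epithelial markers at -2.49 and -2.57 and CD8 T cell identity genes at 4.35 and 4.33. The array labelled liver 5 had epithelial markers at -0.45, above small intestine 1, with Hspa1a at -2.88 and not well above background. The part of other cells in the small intestine value was not tested. Hspa1b, the near-identical neighbour of Hspa1a, had no named probe, and whether the Hspa1a probe separates their transcripts was not tested.

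**Figure D2:**
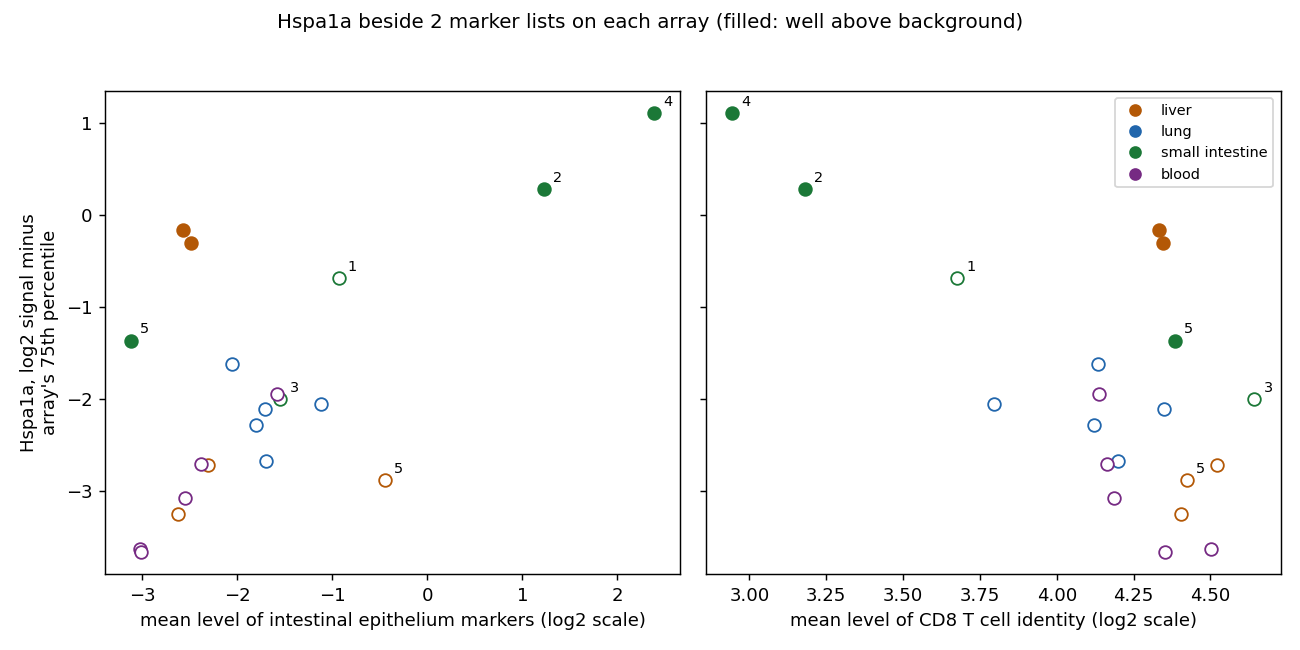
Level of Hspa1a (log2 signal minus the array's 75th percentile) on each of the 20 arrays against the mean level of 14 intestinal epithelium markers (left) and of 15 CD8 T cell identity genes (right), with replicate numbers beside the small intestine arrays and liver 5, and open points where Hspa1a was not well above background. Small intestine 4 and 2 lie at the epithelial end, whereas liver 1, liver 2 and small intestine 5 are well above background without high epithelial markers. Liver 5 has epithelial markers above those of small intestine 1 and is not well above background.

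The 5 genes whose levels followed Hspa1a most closely over the 20 arrays, of the tested genes outside the 10, were Noxo1 (Pearson r = 0.798, Spearman rho = 0.660), Guca2a, Pheta1, E4f1 and Cwc22. Guca2a, which encodes the gut peptide guanylin, is itself 1 of the 14 epithelial markers. The coefficient of Noxo1 was 0.584 without small intestine 4 and 2, and those of the other 4 genes lay between 0.428 and 0.494 without them, against 0.718 to 0.759 with all arrays. These are the highest coefficients among all tested genes, arrays of a slide share that slide, and the values are a description.

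**Figure D3:**
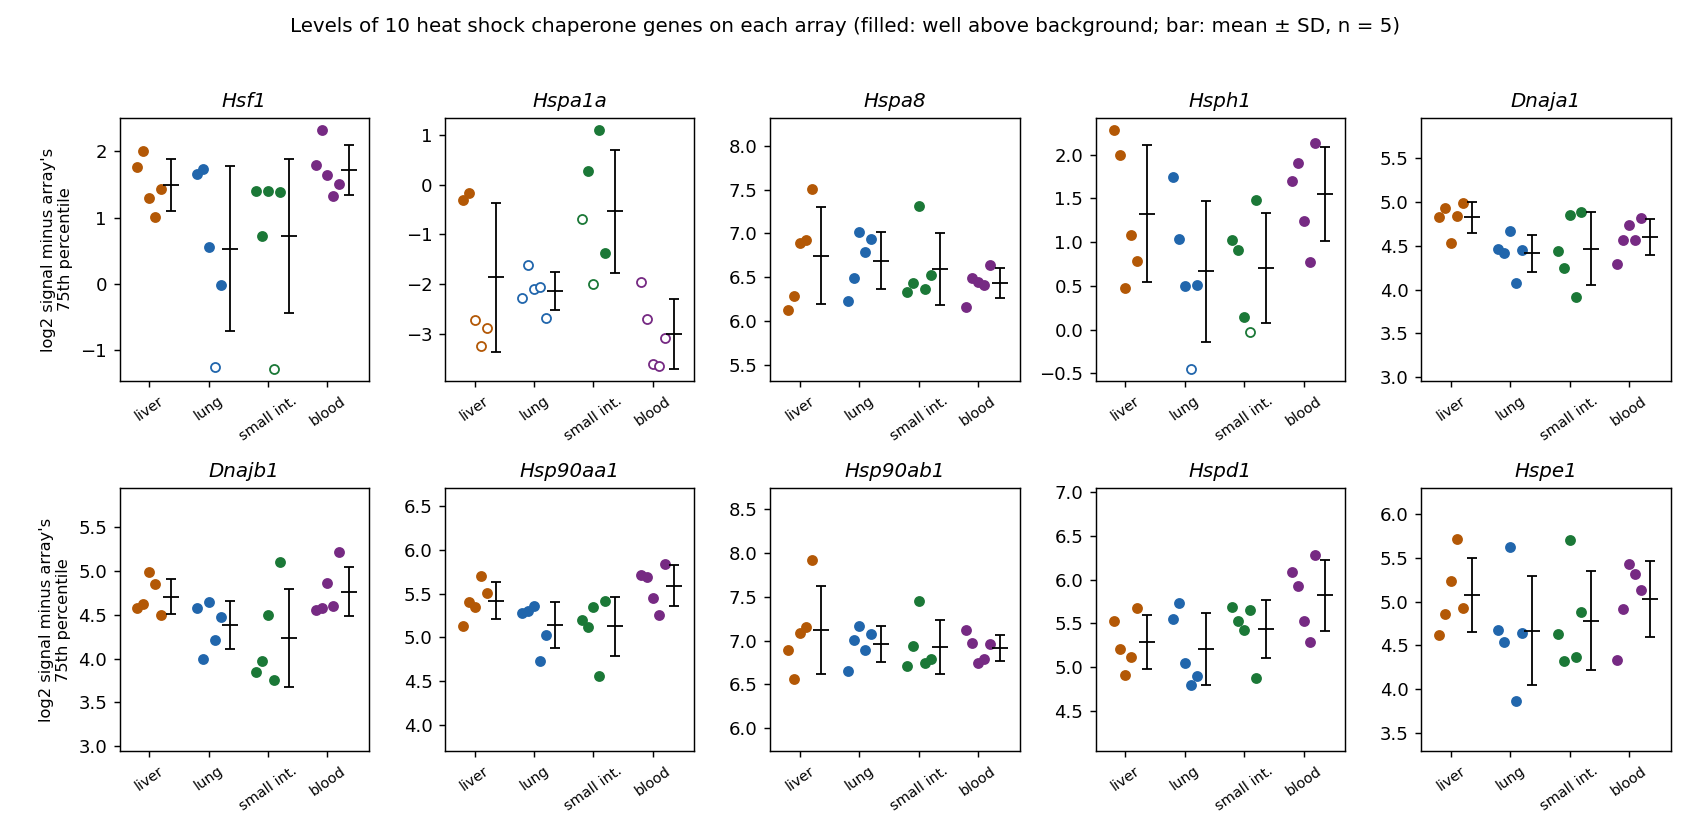
Level of each of the 10 genes on each array (log2 signal minus the array's 75th percentile), with liver, lung, small intestine and blood from left to right, replicates 1 to 5 in order within a site, open points where the probe was not well above background, and bars for mean ± SD (n = 5). Hspa1a, Hsf1 and Hsph1 spread over more than 2 log2 units, and the other 7 genes within 1.08 to 1.85.

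Hspa8, which folds and traffics proteins in unstressed cells, had values of 6.12, 6.28, 6.89, 6.93 and 7.50 in liver and 6.22, 6.49, 7.01, 6.79 and 6.93 in lung. It had 6.33, 6.43, 7.32, 6.36 and 6.52 in small intestine, against 6.16, 6.50, 6.44, 6.41 and 6.63 in blood. Small intestine 3 stood above the other small intestine arrays, and blood was the site with the least spread. The means were 6.74 ± 0.55 in liver, 6.69 ± 0.33 in lung, 6.59 ± 0.41 in small intestine and 6.43 ± 0.17 in blood (SD, n = 5 each). The differences from blood were 0.32, 0.26 and 0.16 with an SE of 0.27 each, and the lowest limma adjusted p among the 3 was 0.453. The 3 probes of Hspa8 disagreed. The chosen probe and the one next in brightness correlated at 0.70 over the 20 arrays, whereas the dimmest correlated with the chosen one at -0.02 and differed by -1.09 ± 0.37 between small intestine and blood (limma adjusted p = 0.0676 over 12138 probes).

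Hsph1, a nucleotide exchange factor of HSP70, gave 1.74, 1.04, 0.49, -0.45 and 0.51 in lung and 1.02, 0.91, 0.14, -0.02 and 1.48 in small intestine. It gave 2.28, 2.00, 0.48, 1.08 and 0.78 in liver, against 1.70, 1.90, 1.24, 0.78 and 2.13 in blood. As for Hsf1, the lung and small intestine arrays of slide 4 had the lowest values of their sites and were not well above background. The log2 difference was -0.88 ± 0.42 for lung (limma adjusted p = 0.146) and -0.84 ± 0.42 for small intestine (limma adjusted p = 0.167) against blood. Small intestine was lower on 5 of 5 slides and lung on 4 of 5. The second Hsph1 probe stayed near background on all 20 arrays.

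Dnajb1, the J-protein that is itself heat inducible, had 3.84, 3.97, 4.50, 3.76 and 5.10 in small intestine, against 4.56, 4.58, 4.86, 4.60 and 5.22 in blood. The arrays labelled small intestine 1 to 4 lay below every blood array, and small intestine 5 lay among them. The means were 4.23 ± 0.56 in small intestine and 4.76 ± 0.28 in blood (SD, n = 5 each), and the log2 difference of -0.53 ± 0.25 (SE) had a limma adjusted p of 0.149, with lower values in small intestine on 5 of 5 slides. With liver 5 and small intestine 5 left out, the difference was -0.75 ± 0.23 (limma adjusted p = 0.024), in a fit that called 26.3% of all tested genes. In that fit small intestine also differed from liver by -0.74 ± 0.24 (limma adjusted p = 0.0415), where 16.3% of all genes passed. Liver values were 4.58, 4.63, 4.99, 4.85 and 4.50 and lung values 4.58, 3.99, 4.65, 4.21 and 4.47, and both sites overlapped with blood. Dnajb1 was the only 1 of the 9 genes to pass in that fit, and CD8 T cell identity genes were lower on 3 of the 4 small intestine arrays it kept.

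Dnaja1, a J-protein that works with HSP70 on newly made and damaged proteins, averaged 4.82 ± 0.18 in liver, 4.41 ± 0.21 in lung, 4.47 ± 0.41 in small intestine and 4.60 ± 0.20 in blood (SD, n = 5 each). Its 20 values ran from 3.91 to 4.99, the narrowest range of the 10 genes. The difference farthest from 0 was that of lung from liver, -0.41 ± 0.21 (SE, limma adjusted p = 0.347), and lung values were lower on 4 of 5 slides. The second Dnaja1 probe likewise stayed near background throughout.

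Hsp90aa1, the stress-inducible form of cytosolic HSP90, had 5.27, 5.30, 5.36, 4.73 and 5.03 in lung and 5.20, 5.12, 5.34, 4.56 and 5.42 in small intestine. It had 5.13, 5.40, 5.35, 5.70 and 5.51 in liver, against 5.71, 5.70, 5.45, 5.25 and 5.84 in blood. Lung and small intestine were each lower than blood on 5 of 5 slides, yet overlapped with it through the low blood array of slide 4. The log2 differences were -0.45 ± 0.21 for lung (limma adjusted p = 0.143) and -0.46 ± 0.21 for small intestine (limma adjusted p = 0.136). Relative to the median of all genes they were -0.15 and -0.11. Hsp90ab1, the constitutive form, averaged 7.12 ± 0.50 in liver, 6.96 ± 0.20 in lung, 6.92 ± 0.31 in small intestine and 6.91 ± 0.15 in blood (SD, n = 5 each). Its differences from blood were 0.21, 0.04 and 0.01 with an SE of 0.23 each, and the 95% intervals ran from -0.28 to 0.69, from -0.44 to 0.53 and from -0.48 to 0.50. Whether the 2 genes differed from each other in their site differences was not tested.

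Hspd1 encodes the HSP60 subunit of the mitochondrial chaperonin and had its highest mean in blood. It had 5.53, 5.21, 4.91, 5.12 and 5.68 in liver, 5.55, 5.73, 5.05, 4.80 and 4.90 in lung and 5.68, 5.53, 5.43, 5.65 and 4.88 in small intestine. In blood it had 6.08, 5.92, 5.53, 5.29 and 6.29. Every slide had a lower value in liver and in lung than in blood, and the groups overlapped because the blood arrays themselves ran from 5.29 to 6.29. The log2 differences were -0.53 ± 0.25 for liver (limma adjusted p = 0.997), -0.62 ± 0.25 for lung (limma adjusted p = 0.127) and -0.39 ± 0.25 for small intestine (limma adjusted p = 0.258). The 5 tested genes that followed Hspd1 most closely were Tmem97 (Pearson r = 0.841, Spearman rho = 0.735, n = 20 arrays), Pno1, Polr1b, Mrps10 and Cacybp, with coefficients of 0.731 to 0.841 and of 0.614 to 0.824 without blood 5 and lung 4.

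Hspe1 encodes the HSP10 lid of the same chaperonin, and its Pearson r with Hspd1 was -0.28 over the 20 arrays after site means were removed. It averaged 5.07 ± 0.42 in liver, 4.67 ± 0.63 in lung, 4.78 ± 0.56 in small intestine and 5.02 ± 0.43 in blood (SD, n = 5 each). Its differences from blood were 0.05, -0.36 and -0.24 with an SE of 0.33 each, and the lowest limma adjusted p among the 3 was 0.408. The 3 Hspe1 probes varied together, with coefficients of 0.98 and 0.78 between the chosen probe and the others.

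Within sites some of the 9 tested genes varied together and others ran opposite ways. Over the 36 pairs of genes the Pearson coefficient after removal of site means ran from -0.58 to 0.84, with a median of 0.29, and 10 pairs lay above 0.5. Hspa8 and Hsp90ab1, the constitutive forms of HSP70 and HSP90, had the highest (r = 0.84, Spearman rho = 0.75), and Hsf1 followed Hsph1 (r = 0.69, rho = 0.65) and Hsp90aa1 (r = 0.69, rho = 0.48). Hsph1 and Hspa8 had the lowest (r = -0.58, rho = -0.54). All pairs share the same arrays, slides and scaling, so these coefficients are descriptions over 20 arrays. Of the 9 genes, 7 had an SD within sites below the median of all tested genes. These 7 were also bright, with mean levels at percentiles 85.2 to 99 of all tested genes. Hsph1 and Hsf1, with the wider spread, lay at percentiles 40.3 and 41.1, and the part of brightness was not tested.

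**Figure D4:**
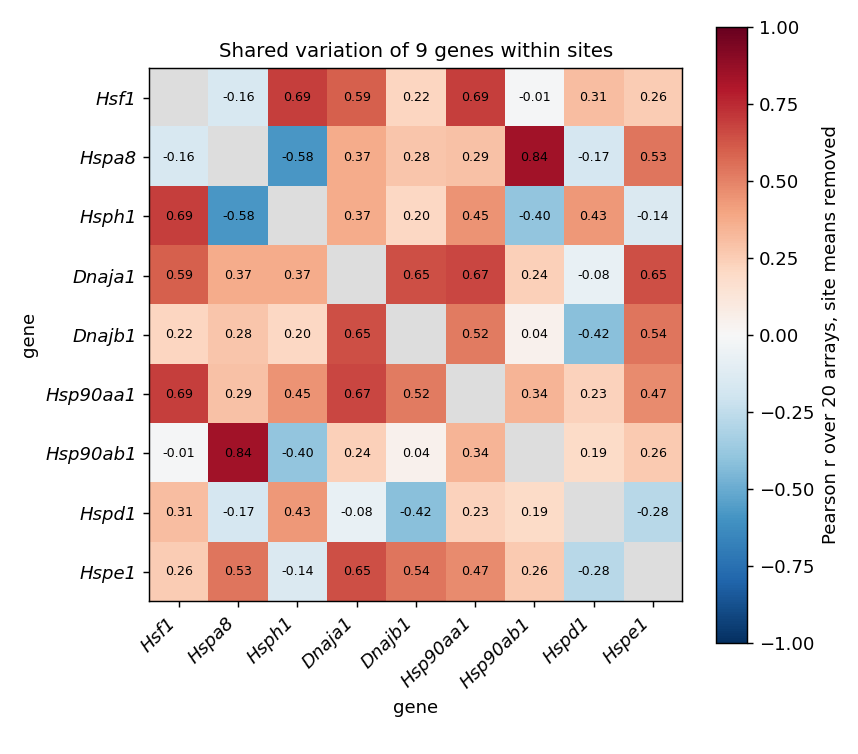
Pearson r between each pair of the 9 tested genes over the 20 arrays after the site means were removed, from -1 (blue) to 1 (red). Dnaja1, Dnajb1, Hspe1 and Hsp90aa1 share positive coefficients of 0.47 to 0.67, and Hspd1 has negative ones with 4 of the other genes.

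Of 90 further genes of the chaperone system in 6 lists, chosen with earlier results of these data known, 70 were tested. In small intestine against blood 1 was higher and 3 were lower (5.71%), beside 10.8% of all genes. An unadjusted limma p under 0.05 was found for 18 of the 70, beside 32.8% of all genes. In the other 5 comparisons 0 of the 70 passed by limma, beside 0% to 0.819% of all genes. Their unadjusted counts were 2 (liver) and 22 (lung) against blood, beside 2.79% and 33.8% of all genes. Between organs they were 15 (lung minus liver), 9 (small intestine minus liver) and 2 (small intestine minus lung), beside 14.8%, 22% and 8.24%. Lonp1, a protease of the mitochondrial matrix, was lower, with 3.72, 3.30, 3.68, 2.68 and 2.86 in small intestine, against 3.93, 4.32, 4.04, 4.19 and 3.96 in blood. Its log2 difference was -0.84 ± 0.25 (SE, limma adjusted p = 0.039). Dnaja3, the mitochondrial J-protein, was lower, with 1.28, 1.26, 2.10, 2.03 and 2.26 in small intestine, against 2.48, 2.73, 2.81, 2.34 and 2.72 in blood (-0.83 ± 0.26, limma adjusted p = 0.0467). The values of Lonp1 and of Dnaja3 did not overlap with blood, as held for 8.3% of all tested genes in this comparison. Sirt1, a deacetylase that acts on HSF1, was lower by 1.45 ± 0.46 on the log2 scale (limma adjusted p = 0.0469), with values of 1.37, 0.18, 1.13, -0.50 and 2.85 in small intestine that overlapped with blood through small intestine 5.

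Herpud1, which helps clear misfolded proteins from the endoplasmic reticulum, was higher, with 4.11, 4.27, 4.01, 2.17 and 3.67 in small intestine, against 1.91, 2.58, 2.49, 2.04 and 2.44 in blood. The difference was 1.36 ± 0.42 (SE, limma adjusted p = 0.0437), and small intestine 4 lay among the blood values. The array labelled liver 5 had 4.68, above every other array, and the other liver arrays had 2.35 to 3.23. These 4 calls depended on the setting, and with the scaling on detected probes 0 of the 70 genes passed, in a fit that called 0.236% of all genes. With liver 5 and small intestine 5 left out, 12 of the 70 passed for small intestine against blood, beside 26.3% of all genes. Epithelial marker levels on the small intestine arrays, given with Hspa1a, apply to these values too, and their part was not tested.

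By list, the mitochondrial chaperones and proteases had 2 of 11 tested genes lower in small intestine than in blood, with a median difference of -0.64, and 9 of 11 negative, beside 10.8% called and 64.7% negative over all genes. The endoplasmic reticulum chaperones had 1 of 14 higher, with a median of -0.01, and the heat shock factors and regulators had 1 of 3 lower. None of 21 cytosolic co-chaperones (median -0.58), 11 TRiC and prefoldin subunits (median -0.42) and 10 other inducible heat shock proteins (median -0.07) passed, beside a median of -0.36 over all genes. Among genes that did not pass, Hspa4, an HSP110 relative of Hsph1, averaged 5.74 in small intestine and 5.10 in blood (limma adjusted p = 0.234), Cdc37, which brings kinases to HSP90, 5.16 and 5.61 (limma adjusted p = 0.173), and Ubb, a ubiquitin gene with heat inducible transcription, 6.85 and 6.84 (limma adjusted p = 0.983).

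Of 24 immediate early genes, whose transcription starts soon after many stimuli, 16 were also tested. Which stimulus lay behind their levels was not tested. The list was chosen with earlier results of these data known, so its shares are a description. Jun and Dusp1, well above background on 5 of 5 arrays at each site, were higher than in blood in both lung and small intestine. Fos also passed in both, with a limit given below. With Fos counted, 3 of 16 passed in each (18.8%), beside 0.819% of all genes for lung and 10.8% for small intestine. For liver 0 of 16 passed, beside 0% of all genes, so that count does not set liver apart. Dusp1, a phosphatase that turns off MAP kinases, differed from blood by 2.10 ± 0.41 in lung (limma adjusted p = 0.0184), by 1.81 ± 0.41 in small intestine (limma adjusted p = 0.017) and by 2.05 ± 0.41 in liver (limma adjusted p = 0.268), with higher values than blood on 5 of 5 slides in each organ. Fos was well above background on 2 of 5 blood arrays and on 5 of 5 in each organ. It was therefore tested only through the organs, so no weight is put on its call and the size of its difference is not given. It had 3.81, 4.44, 1.49, 3.22 and 2.95 in lung and 3.05, 3.94, 1.85, 1.12 and 1.24 in small intestine, against 1.27 and 1.48 on blood 1 and 2. Small intestine 4 and 5 lay below both of these blood arrays. Over the alternatives, the call against blood was lost for Dusp1 in 9 of 34 (lung) and 2 of 34 (small intestine), and for Jun in 12 and 9 of 34. The 11 dendritic cell markers averaged -0.46 to 1.54 on lung arrays and -1.19 to 1.78 on small intestine arrays, against -1.76 to -0.67 in blood. Between 2 and 6 (lung), 4 and 8 (small intestine) and 2 and 5 (blood) of them were well above background. Alveolar macrophage markers on the lung arrays are given above. Small intestine 1 and 2, with the highest monocyte and macrophage markers, also had the highest Fos of that site. The part of such cells was not tested. In the same comparisons 0 of the 9 tested chaperone genes passed. The immediate early list averaged 1.72, 1.90, 0.99, 0.52 and 1.37 on small intestine 1 to 5. Small intestine 4, with the highest Hspa1a of the site, thus had the lowest mean of this list. Small intestine 2, the next in Hspa1a, had the highest.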

How the data were processed

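Amplified RNA of each sample was labelled with Cy3 and hybridised to a 1-colour Agilent mouse array, per the labels' protocols. The deposited scanner files hold a background-subtracted processed signal, a linear intensity, written by Feature Extraction. Its version is 11.0.1.1 in the file headers and 10.7 in the submitters' processing notes, which also list Partek. The authors' deposited value table is log2, each column has a median of 8.05, it departed from processed signal after log2 and quantile normalization by 5.55e-06 at the median, and it served as an alternative.

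Here log2 processed signal had the array's 75th percentile subtracted, 1377 control spots and 24 flagged as non-uniform were dropped, and spots of a probe were averaged. Probes took symbols through RefSeq accessions (27508 named, over 20886 genes), and a gene's brightest probe was used. The fit was limma 3.58.1 in R 4.3.3 with 1 coefficient for each of 4 sites, all 20 arrays (residual degrees of freedom 16) and two-sided tests, with Benjamini-Hochberg adjustment per comparison at 0.05. All 10 genes were described, with called genes of fixed lists (otherwise their brightest, up to 4 each) and the 5 tested genes most like Hspa1a and Hspd1. The genes and lists were chosen with earlier results of these data known. The Hspa1a ratio sets the mean of a bright site against, per dim array, whichever is higher, the probe's own signal or the dimmest one well above background. It is no strict lower bound. On simulated data with 200 changed genes among 8057, small intestine against blood recovered 1.49% of changes of 0.5, 25.4% of changes of 1 and 71.2% of changes of 2 on the log2 scale, with 9 false calls. The alternatives were other scalings, background correction (normexp, offset 50, on median signals, since mean signals were not used here), filters, probes, fits and left-out arrays. Promoters came from RefSeq tables.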

Additional observations from a re-analysis of the deposited data

Results flagged for a closer look

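Each of the 10 genes was checked in each site for an array that stands far from the other 4, which makes 40 groups of 5, and 2 stood apart. Chance alone sets apart about 1 group in 20. Hspa8 was at 7.32 on small intestine 3, and the next value of that site was 6.52. Before scaling, its signal on small intestine 3 was 139900 units, within the 82500 to 261900 of the other small intestine arrays. The 75th percentile of that array, 878 units, was the lowest of the site, and the part of the scaling was not tested. Hsf1 was at -1.28 on small intestine 4, where its probe was not well above background, and the next value of that site was 0.72. Small intestine 3 had the highest mean of the CD8 T cell identity genes of all arrays, 4.64, and small intestine 4 the lowest, 2.94. The part of T cell content in both values was not tested.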

How the results depend on the processing

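Of 54 differences of the 9 tested genes between sites, 0 passed as reported and 4 of 1824 values did over 34 alternatives, all 4 for Dnajb1. For small intestine against blood 1 of the 9 passed with liver 5 and small intestine 5 left out (adjusted p = 0.024), without small intestine 5 alone (0.0246), and with both arrays left out and the scaling on detected probes (0.0247), a setting chosen after the data were seen. These fits called 26.3%, 25.3% and 23.8% of all genes. For small intestine against liver 1 passed without both arrays (0.0415), beside 16.3% of all genes, and with both changes 1 of the 9 passed the F-test (Dnajb1, 0.0435), beside 18.2%. With no filter on dim probes the count was 1 of 10, Hspa1a. With single arrays left out the count was 0 to 1 for small intestine against blood and 0 in the other comparisons. In 23 of the 54 differences the sign changed under at least 1 alternative, 93 values in all and none past the threshold.

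The count of other chaperone system genes past the threshold in small intestine against blood, 4 as reported, was 0 with the scaling on detected probes, with median scaling, with no filter and with only the 2 sites fitted, where 0.236%, 4.91%, 1.22% and 4.06% of all genes passed. It was 1 under quantile normalization and in the deposited value table (6.14% of all genes in each), 7 with the mean of a gene's probes (9.79%), 12 without liver 5 and small intestine 5 (26.3%), and 9 with both changes (23.8%). With single arrays left out it ran from 0 to 14, the highest without small intestine 3, where 23.8% of all genes passed. For lung against blood it was 0 as reported, 1 without liver 5 and small intestine 5 (2.17%), 2 with both changes (6.59%), and 0 to 9 with single arrays left out, the highest without lung 1 (10.5%). The cause of these shifts was not tested.

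Same-numbered arrays shared a slide, and their deviations from the site means correlated above 0.1 in 18 of 30 pairs. With the replicate block 0 of the 9 genes passed in each comparison and in the F-test, and 6 of the other 70 passed for small intestine against blood, beside 14.4% of all genes. Levels themselves shift with the scaling, since 0 is set by it. Hspa1a, Hsf1 and Hsph1 lie near background on some arrays, which limits their differences.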
